A study of Mus musculus with 16 samples.

Results

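The respiratory chain was followed in epididymal white fat of mice as 123 genes of the 27150 in the deposited mRNA table. They were chosen by gene name alone: nuclear genes with names of subunits of complexes I to V, and every gene of the mitochondrial genome. Of these members 86 were nuclear. By the start of the name, 37 were placed in complex I, 4 in complex II, 9 in complex III, 18 in complex IV and 18 in complex V, the last including 2 names that mark pseudogenes. Ndufa4 and Ndufa4l2 thus count with complex I and Cox7a2l with complex IV, whichever complex their proteins belong to. The other 37 members were mitochondrially encoded and comprised 13 protein genes, 2 ribosomal RNA genes and 22 transfer RNA genes.

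Total RNA of epididymal fat from male C57BL/6 mice was sequenced in 16 libraries, 4 per group. The groups were mice on a high-fat diet (HFD) given metformin, an antidiabetic biguanide, mice on HFD given resveratrol, a plant polyphenol, mice on HFD alone, and mice on a normal diet. All mice were bought at 6 weeks of age and about 22 g. The HFD held 60% fat and had run for 8 weeks when the drugs began, which were then given for 6 weeks at doses the labels do not state. The diet is the disease model here, no allele or transgene is named, and each library has a code of its own without a statement that it is a separate animal, so each p-value below rests on how far libraries of a group differ, which may be technical in part.

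The respiratory chain passes electrons from NADH (complex I) and succinate (complex II) through ubiquinone, complex III, cytochrome c and complex IV to oxygen, and the proton gradient so built drives ATP synthase (complex V). The mitochondrial genome encodes core subunits of every complex except complex II, and its transcripts are made as long precursors that are cut apart largely at the transfer RNAs between the coding genes. All other subunits are transcribed in the nucleus and imported, so that each complex but the second needs both genomes, and white adipocytes use the chain to power lipid synthesis and fatty acid re-esterification.

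The deposited whole-number counts summed to 13350585 to 20531032 per library in the mRNA table. In the HFD and in the metformin group 1 library each could be tied to its group but not to a sample, and these are called HFD unmatched and metformin unmatched. Values per library are listed in the order 1, 2, 3 and unmatched for HFD, 1 to 4 for the normal diet, 1, 2, 4 and unmatched for metformin, and 1 to 3 for resveratrol. Resveratrol 4 was left out of the tests: its 10 epididymis markers, of which 9 were in the table, summed to 23407 counts per 1000000 mRNA counts (CPM), against at most 62.1 CPM in the other 15 libraries, and its 12 adipocyte markers to 1281 CPM, against 21622 to 42372 CPM. Although the labels speak of retina and of skeletal muscle in their protocol texts, the 5 retina markers summed to 2.05 to 15.1 CPM and the 8 skeletal muscle markers to 3.53 to 115 CPM. Normal diet 2, metformin 2, 4 and unmatched, and resveratrol 2 held 539 to 1521 CPM of 15 markers of motile ciliated epithelium, and the other 10 tested libraries 15.01 to 34.8 CPM. Of the epididymis markers, Crisp1 was at 15.2 to 16.3 CPM in the metformin libraries and at most 0.178 CPM in the other tested libraries. Adam7 was at 4.87 to 27.8 CPM with metformin and at 36.3 CPM in normal diet 2. The part of these traces in the comparisons was not tested.

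Under HFD the mitochondrial genome gave a smaller share of the mRNA counts, while the share of the nuclear members overlapped with that on the normal diet. The 13 mitochondrial protein genes made up 0.826, 0.879, 1.005 and 1.13% of mRNA counts in the HFD libraries, against 2.02, 1.41, 1.39 and 1.53% in the normal diet libraries. Every HFD library lay below every normal diet library, and the means were 0.961 ± 0.138% under HFD and 1.59 ± 0.293% on the normal diet (SD, n = 4 each). The 86 nuclear members made up 0.609, 0.612, 0.654 and 0.668% of mRNA counts in the HFD libraries, against 0.768, 0.673, 0.6498 and 0.663% in the normal diet libraries, and these ranges overlapped. In bulk tissue, fewer cells rich in mitochondria and less mitochondrial RNA per cell cannot be told apart.

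The ratio of all mitochondrial to all nuclear member counts was 1.37, 1.47, 1.58 and 1.73 in the HFD libraries, against 2.71, 2.15, 2.18 and 2.33 in the normal diet libraries. No HFD library reached the lowest normal diet library, and the log2 difference of the group means of the log ratio was -0.61, a fold of 0.657, with a pooled SD of 0.15. With metformin on HFD the ratio was 1.98, 1.73, 1.89 and 2.08, and with resveratrol on HFD 1.97, 1.99 and 2.505. Metformin 2 lay level with HFD unmatched, so those groups overlapped, while the 3 resveratrol libraries lay above all 4 HFD libraries. The log2 difference was 0.32 for metformin against HFD (pooled SD 0.13) and 0.48 for resveratrol against HFD (pooled SD 0.17). Against the normal diet it was -0.28 for metformin, with no overlap, and -0.12 for resveratrol, with overlap. The left-out resveratrol 4 had a ratio of 3.67.

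**Figure D1:**
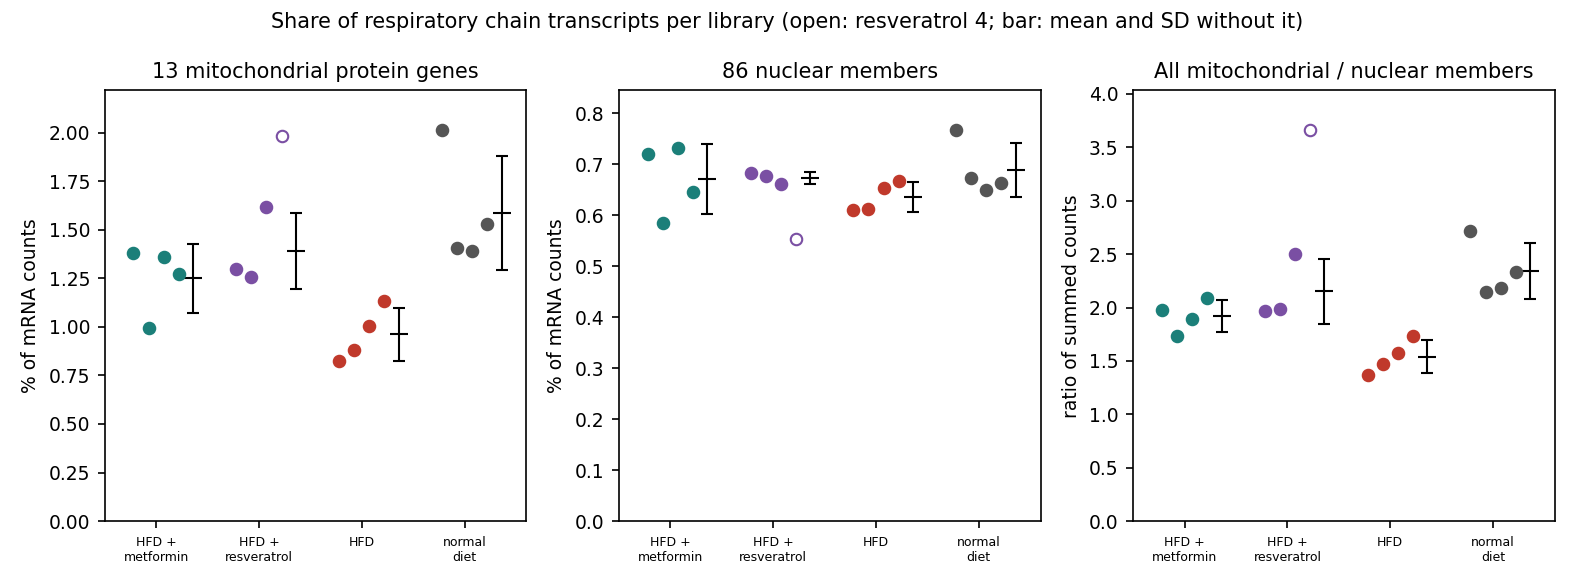
Share of mRNA counts (%) held by the 13 mitochondrial protein genes (left) and the 86 nuclear members (middle), and the ratio of all mitochondrial to nuclear member counts (right), 1 point per library, with mean and SD. The 4 HFD libraries sit between 0.826 and 1.13% on the left, below all 4 normal diet libraries at 1.39 to 2.015%, while the groups overlap in the middle.

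Each of the 13 mitochondrial protein genes had a lower mean under HFD, and 10 of them fell. With genes tested by edgeR's quasi-likelihood test and p-values adjusted by Benjamini and Hochberg over 17535 genes, 9.34% of all genes fell and 13.8% rose at an adjusted p under 0.05. The median log2 fold change was -0.67 over the 13 protein genes and -0.04 over all genes tested, and 9 of the 13 had HFD libraries entirely below the normal diet libraries, against 13.7% of all genes. Genes of the mitochondrial genome are given below by complex in CPM scaled by TMM, a normalisation that equalises libraries by trimmed mean log ratios, with GRCm38 coordinates as the table gives them.

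Both mitochondrially encoded ATP synthase genes fell, with the lowest log2 values of the 13. mt-Atp6 (MT, 7927 to 8607), subunit a of the proton channel, had 73.1, 91.1, 104 and 116 CPM in the HFD libraries, against 270.2, 163, 171 and 214 CPM in the normal diet libraries. The highest HFD library stayed well below the lowest normal diet library, and the gene fell (log2 -1.09, SE 0.21, adjusted p = 0.00349). mt-Atp8 (MT, 7766 to 7969), a small subunit of the membrane part, had 20.9, 25.01, 26.6 and 35.1 CPM in the HFD libraries, against 82.8, 40.3, 49.8 and 53.8 CPM in the normal diet libraries. It fell by a like amount with no overlap (log2 -1.07, SE 0.24, adjusted p = 0.00692). The coordinates of the 2 genes overlap, and the sources do not say how reads there were assigned or whether strand was used, so reads of overlapping genes, and of nuclear copies of mitochondrial DNA, could not be told apart.

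The 7 mitochondrial genes of complex I, all parts of its membrane arm, split into 4 that fell and 3 that were not called. mt-Nd5 (11742 to 13565), a proton-pumping subunit at the tip of that arm, had 265, 349, 364 and 452 CPM in the HFD libraries, against 908, 540.4, 516 and 639.7 CPM in the normal diet libraries. mt-Nd4 (10167 to 11544), the neighbouring pump subunit, had 482, 596, 651 and 766 CPM in the HFD libraries, against 1491, 904, 910.5 and 1061 CPM in the normal diet libraries. Neither gene's groups overlapped, and both fell (mt-Nd5 log2 -0.87, SE 0.22, adjusted p = 0.0129, and mt-Nd4 log2 -0.81, SE 0.21, adjusted p = 0.0167). mt-Nd4l (9877 to 10173), which overlaps the start of mt-Nd4, had 57.5, 65.2, 69.99 and 93.4 CPM in the HFD libraries, against 157, 101, 100.1 and 119.9 CPM in the normal diet libraries (log2 -0.74, SE 0.19, adjusted p = 0.0134). mt-Nd3 (9459 to 9806), a small subunit near the ubiquinone site, had 68.2, 73.96, 94.3 and 76.8 CPM in the HFD libraries, against 171, 112, 97.99 and 109 CPM in the normal diet libraries (log2 -0.64, SE 0.19, adjusted p = 0.0294). In both small genes the groups were separate, narrowly so in mt-Nd3, where HFD 3 came close to normal diet 3.

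Of the uncalled genes, mt-Nd1 and mt-Nd2 had values close to 0. mt-Nd6 (13552 to 14070), encoded on the opposite strand to the other 12 protein genes, had 139, 158, 153 and 221 CPM in the HFD libraries, against 373, 186, 224 and 270.2 CPM in the normal diet libraries, with HFD unmatched above normal diet 2 (log2 -0.65, SE 0.25, adjusted p = 0.0761). mt-Nd1 (2751 to 3707), at the joint of the membrane and matrix arms, had 286, 327, 377 and 398 CPM in the HFD libraries, against 502, 338, 325 and 333 CPM in the normal diet libraries (log2 -0.11, SE 0.17, adjusted p = 0.663). mt-Nd2 (3914 to 4951), a further pump subunit, had 116, 136, 156 and 179.9 CPM in the HFD libraries, against 227, 132, 135 and 150.5 CPM in the normal diet libraries (log2 -0.13, SE 0.21, adjusted p = 0.675). In both genes the groups were interleaved and normal diet 1 alone stood high; without normal diet 1 their log2 values were 0.057 and 0.072. As a share of the counts of all 13 protein genes, mt-Nd1 and mt-Nd2 together held 4.72, 5.101, 4.95 and 4.96% in the HFD libraries, against 3.52, 3.66, 3.37 and 3.08% in the normal diet libraries. This share, within the mitochondrial transcripts themselves, was higher in every HFD library than in any normal diet library, with means of 4.93 ± 0.156% under HFD and 3.41 ± 0.249% on the normal diet (SD, n = 4 each).

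Complexes III and IV followed the same direction. mt-Cytb (14145 to 15288), cytochrome b and the sole mitochondrially encoded part of complex III, had 496, 531, 561 and 819 CPM in the HFD libraries, against 1379.5, 813, 889 and 1009 CPM in the normal diet libraries. It fell (log2 -0.77, SE 0.22, adjusted p = 0.0229), although HFD unmatched lay just above normal diet 2. mt-Co1 (5328 to 6872), the catalytic subunit of cytochrome c oxidase, had 4419, 4642, 5645 and 5961 CPM in the HFD libraries, against 10577, 6501, 7038 and 8118 CPM in the normal diet libraries (log2 -0.64, SE 0.21, adjusted p = 0.0429). mt-Co2 (7013 to 7696), which takes electrons from cytochrome c, had 575, 593, 689 and 724 CPM in the HFD libraries, against 1221, 818, 836 and 918 CPM in the normal diet libraries (log2 -0.56, SE 0.16, adjusted p = 0.0266). For both, all HFD libraries were below all normal diet libraries. mt-Co3 (8607 to 9390), the third core subunit of complex IV, had 1511, 1493, 1882 and 1815 CPM in the HFD libraries, against 3353, 2214, 2348 and 2732 CPM in the normal diet libraries, again without overlap (log2 -0.67, SE 0.18, adjusted p = 0.0168). mt-Co1 held a nearly constant 47.999 to 52.4% of mitochondrial protein counts in the 16 libraries.

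**Figure D2:**
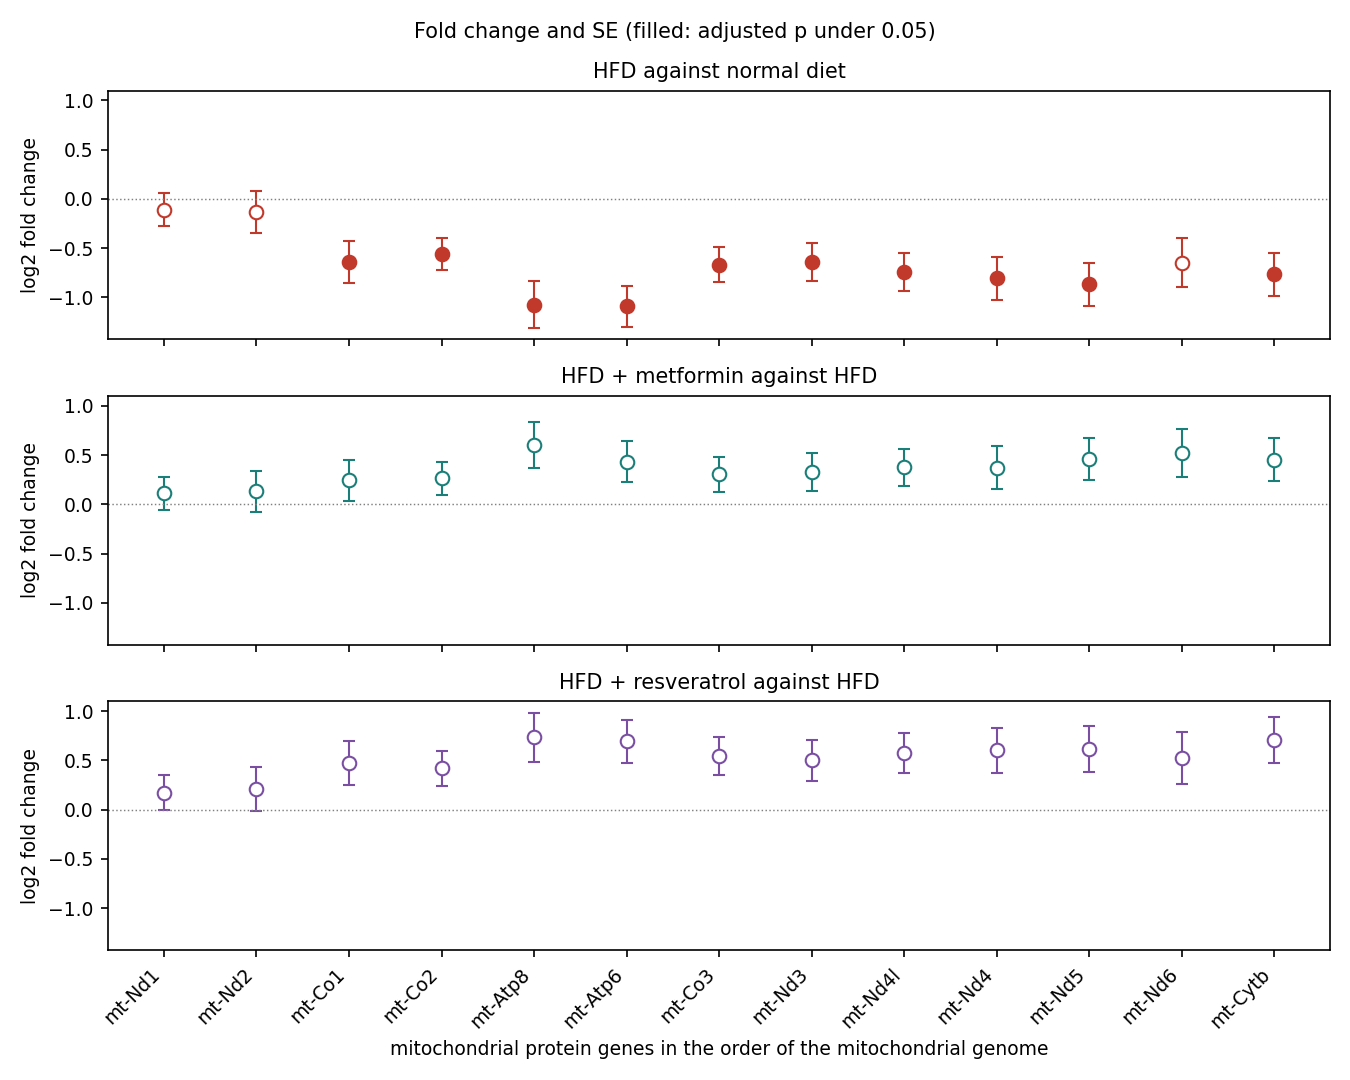
Log2 fold change with SE (y axis) of the 13 mitochondrial protein genes in genome order (x axis) for HFD against normal diet, metformin on HFD against HFD and resveratrol on HFD against HFD; filled points passed an adjusted p of 0.05. In the top panel mt-Nd1 and mt-Nd2 lie near 0 and the other 11 between -0.56 and -1.09; all 13 lie above 0 in both lower panels, with no point filled.

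Single libraries moved the count of these decreases. Normal diet 1 had the highest CPM of its group in all 13 protein genes, and without it 6 of them fell in place of 10. Of the 8 skeletal muscle markers, Myh4 and Ckm, genes of fast muscle fibres picked after their values were seen, stood at 46.6 and 12.5 CPM there and at no more than 0.963 and 0.510 CPM elsewhere. The most abundant of the list, Acta1, was at 45.8 CPM there and at 107 CPM in HFD unmatched, and the list summed to 115 CPM there and 109.6 CPM in HFD unmatched; its part in these values was not tested. Without HFD 1, which lay below every normal diet library in all 13 genes, 4 fell, and without HFD 2 5 fell, with a median log2 of -0.62 in each fit. The decreases over all genes, 1638 with these libraries, numbered 1070 without HFD 1, 1104 without HFD 2 and 1371 without normal diet 1. HFD unmatched lay below every normal diet library in 9 of the 13 genes, HFD 2 and HFD 3 in 11 each. With all 16 libraries in the model 5 of the 13 fell, beside 921 genes up and 610 down over all genes, and 11 of 13 fell without HFD unmatched. mt-Atp6, mt-Atp8, mt-Nd5 and mt-Nd4l passed in all 23 alternative fits, against 11 of the 23 for mt-Co1.

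Markers of other cell types also differed in level between libraries. The 12 macrophage markers, all in the table and all averaging over 1 CPM, summed to 5284, 5933, 6063 and 2017 CPM in the HFD libraries, against 1576, 1489.5, 2554 and 1908 CPM in the normal diet libraries. HFD 1, 2 and 3 stood far above the normal diet, while HFD unmatched was within the normal diet range. HFD unmatched had the highest mitochondrial to nuclear ratio of the HFD libraries, 1.73, and the lowest normal diet library was at 2.15. The 12 adipocyte markers summed to 27748 to 37202 CPM in the HFD libraries, against 29173 to 42141 CPM in the normal diet libraries, and the 6 fibroblast and preadipocyte markers to 3318 to 6191 CPM in the HFD libraries, against 2473 to 5067 CPM in the normal diet libraries. Genes of a list went apart (named after their values were seen). Pdgfra was at 108 to 165 CPM in the HFD libraries, against 182 to 288 CPM in the normal diet libraries. Dcn was at 445 to 748 CPM under HFD, against 916 to 1146.5 CPM. Col1a1 and Col3a1 were higher in HFD 1, 2 and 3 than in any normal diet library. Of the adipocyte markers Cfd was at 447 to 1691 CPM under HFD, against 4913 to 7443 CPM. Lpl was at 9273 to 11628 CPM, against 6808 to 9275 CPM. Of the macrophage markers Cd163 was at 84.2 to 157 CPM under HFD, against 144 to 239 CPM. Lyz2 was at 637 to 1752 CPM, against 477 to 758 CPM. The part of these markers in the decrease was not tested.

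Summed mitochondrial transfer RNAs were higher under HFD, and the ribosomal RNAs overlapped. Transfer RNA counts were small, 85 to 217 per library over 22 genes, and 9 of the 22 passed the filter on low counts. Summed, they came to 8.52, 8.92, 8.82 and 12.3 CPM in the HFD libraries, against 6.37, 6.21, 6.71 and 5.66 CPM in the normal diet libraries, so every HFD library was higher. Per 10000 counts of mitochondrial protein genes that was 10.3, 10.2, 8.78 and 10.9 in the HFD libraries, against 3.16, 4.41, 4.84 and 3.697 in the normal diet libraries. Both values of HFD 3 rest in part on mt-Td, named after its values were seen, which held 38 of its 181 transfer RNA reads. In each of the other libraries mt-Td had 1 to 7 reads. Of the 9 tested, 8 had a positive log2 fold change (median 0.63), 4 had no overlap and were higher under HFD, against 14.1% of all genes, and 1 rose.

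That gene, mt-Tl1 (MT, 2676 to 2750), named here after its values were seen, is a leucine transfer RNA gene that lies directly between mt-Rnr2 and mt-Nd1. It had 42, 49, 51 and 52 reads in the HFD libraries, against 18, 19, 26 and 22 reads in the normal diet libraries. On the scaled level that was 2.13, 2.51, 2.66 and 3.14 CPM in the HFD libraries, against 1.39, 0.962, 1.39 and 1.29 CPM in the normal diet libraries. The groups were separate and the gene rose (log2 1.05, SE 0.26, adjusted p = 0.0114), in all 23 alternative fits as well. How reads that run across the border with its neighbours were counted is not given in the sources used here.

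The ribosomal RNA genes mt-Rnr1 and mt-Rnr2, of the small and large mitochondrial ribosomal subunit, varied widely within groups. Their sum was 63.3, 217, 253 and 203 CPM in the HFD libraries, against 679, 354, 275 and 137 CPM in the normal diet libraries, and the ranges overlapped. Neither passed (mt-Rnr1 log2 -0.78, SE 0.63, adjusted p = 0.386, and mt-Rnr2 log2 -0.96, SE 0.52, adjusted p = 0.192).

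Of the 86 nuclear members 83 passed the filter, the 3 others being Cox6a2, Cox7b2 and Cox8c, and most were not called. Under HFD 5 of the 83 rose and 2 fell, 6.02% and 2.41%, below the background of 13.8% and 9.34% of all genes, and 76 were not called. The median log2 fold change was 0.01, the quartiles were -0.16 and 0.16, and 77 of 83 were within 0.5 of 0 in either direction. The medians were -0.04 for complex I, -0.04 for complex II, 0.06 for complex III, 0.05 for complex IV and 0.03 for complex V, against -0.65, -0.77, -0.64 and -1.08 for the mitochondrially encoded members of complexes I, III, IV and V. With upper-quartile scaling in place of TMM, 4 nuclear members rose and 4 fell.

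**Figure D3:**
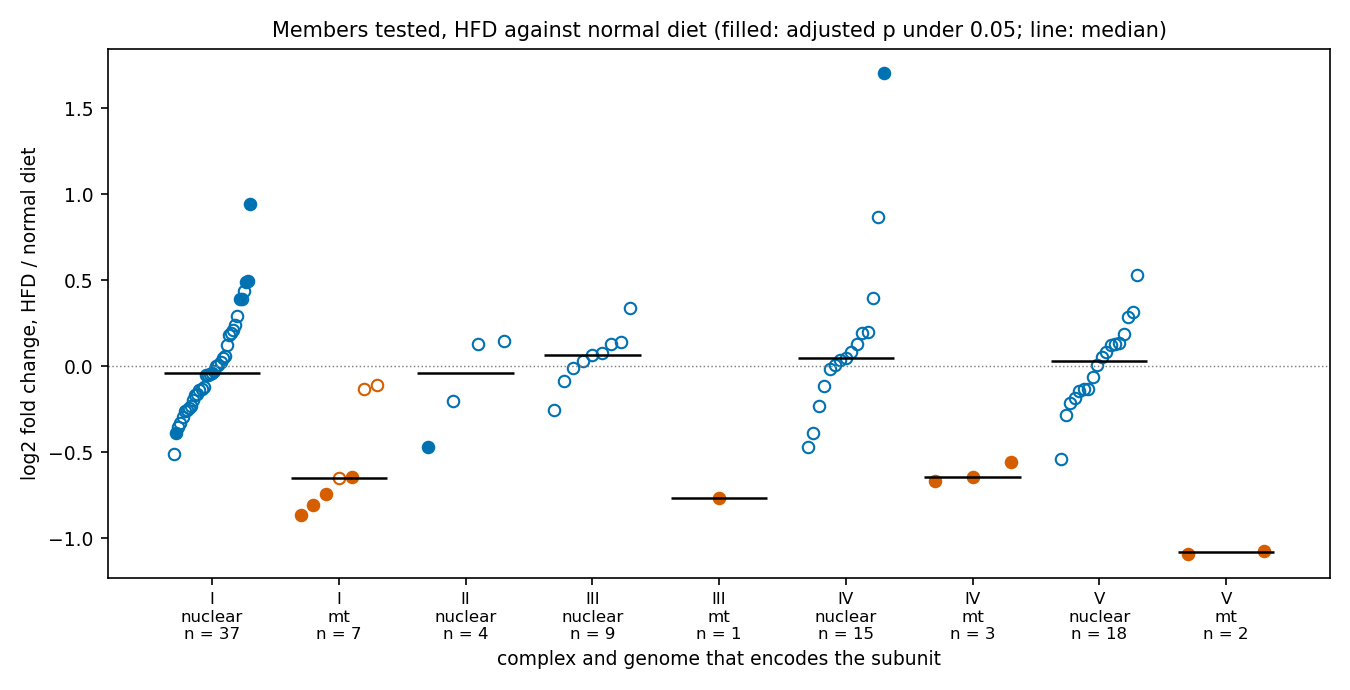
Log2 fold change of HFD against normal diet (y axis) for each tested subunit gene, grouped by complex and encoding genome (x axis, with the number of genes), with the median as a line; filled points passed an adjusted p of 0.05. The nuclear medians lie between -0.04 and 0.06, and the mitochondrial ones between -0.64 and -1.08.

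A further 9 catalytic and central nuclear subunits were not called. In complex I, log2 fold changes under HFD were -0.14 for Ndufv1, which binds NADH, and -0.04 for the iron-sulfur subunit Ndufs1. In complex III they were 0.14 for the core protein Uqcrc1, -0.01 for the Rieske protein Uqcrfs1 and 0.03 for cytochrome c1. In complex IV they were -0.12 for Cox4i1 and 0.20 for Cox5a, and in ATP synthase 0.05 for the alpha and -0.13 for the beta subunit of the catalytic head. None of these 9 passed, with adjusted p-values of 0.167 to 0.962 and overlapping groups in each. Atp5b, for one, had 1029, 1005, 1085 and 1182 CPM in the HFD libraries, against 1399, 999, 1106 and 1217 CPM in the normal diet libraries.

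Per kilobase of transcript mt-Co1 stood well above the highest nuclear member under HFD and on the normal diet. mt-Co1 averaged 3344 CPM per kilobase under HFD and 5216 on the normal diet, and mt-Atp6 141 under HFD and 300.1 on the normal diet. Atp5b, the highest nuclear member, averaged 642 CPM per kilobase under HFD and 703 on the normal diet, and the median nuclear subunit of complex I 51.8 under HFD and 52.8 on the normal diet. mt-Atp6 thus stood below Atp5b per kilobase in both groups, whereas mt-Co1, mt-Co3 and mt-Co2, the last at 943 under HFD and 1386 on the normal diet, stood above it.

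The 5 nuclear members that rose under HFD included 4 of the 37 of complex I, 10.8%, against 13.8% of all genes. Ndufb3 (chr1:58586384-58595964), a small accessory subunit of the membrane arm, had 35.03, 36.2, 43.6 and 34.3 CPM in the HFD libraries, against 24.02, 17.2, 17.9 and 18.4 CPM in the normal diet libraries. All HFD libraries exceeded all normal diet libraries, and it rose (log2 0.94, SE 0.19, adjusted p = 0.00482). Ndufa8 (chr2:36036326-36049406), a twin-cysteine accessory subunit, had 65.6, 66.5, 68.9 and 63.2 CPM in the HFD libraries, against 54.7, 43.4, 43.4 and 47.05 CPM in the normal diet libraries (log2 0.49, SE 0.11, adjusted p = 0.00668). Ndufa11 (chr17:56717762-56724248), an accessory subunit at the contact of complex I with complex III, had 20.6, 21.5, 23.7 and 23.5 CPM in the HFD libraries, against 16.7, 17.6, 13.7 and 15.3 CPM in the normal diet libraries (log2 0.49, SE 0.10, adjusted p = 0.00501). In both genes the HFD libraries were all above the normal diet libraries. Ndufs8 (chr19:3908870-3912717), a core subunit that carries iron-sulfur clusters, had 27.9, 26.96, 29.7 and 23.8 CPM in the HFD libraries, against 23.7, 21.6, 18.6 and 18.7 CPM in the normal diet libraries, with HFD unmatched barely above normal diet 1 (log2 0.39, SE 0.12, adjusted p = 0.0342). Ndufs8 passed in 14 of the 23 alternative fits, with an adjusted p of up to 0.108.

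Sdha and Ndufa6 fell. Sdha (chr13:74322254-74350280), the flavoprotein of succinate dehydrogenase that serves both complex II and the tricarboxylic acid cycle, had 347, 334, 389.7 and 424 CPM in the HFD libraries, against 576, 476, 483 and 530.3 CPM in the normal diet libraries. The groups were separate (log2 -0.47, SE 0.13, adjusted p = 0.0242), and the adjusted p was above 0.05 in 4 of 23 alternative fits: 0.186 with all libraries, 0.0631 without normal diet 1, 0.0715 without HFD 1 and 0.072 without HFD 2. Its partner Sdhb, the iron-sulfur subunit, had 99.1, 103, 114 and 109 CPM in the HFD libraries, against 138, 108, 115 and 129 CPM in the normal diet libraries, with overlap (log2 -0.20, SE 0.12, adjusted p = 0.229). Ndufa6 (chr15:82350139-82354291), an accessory subunit of the LYR-motif family in the matrix arm of complex I, had 27.9, 29.9, 33.4 and 31.1 CPM in the HFD libraries, against 45.3, 40.6, 36.8 and 37.7 CPM in the normal diet libraries. No HFD library reached the lowest normal diet library (log2 -0.39, SE 0.09, adjusted p = 0.00745), and with all 16 libraries the adjusted p was 0.0621.

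Counted by overlap alone, and including called members, 6 nuclear members had HFD libraries entirely below and 8 entirely above the normal diet libraries, 7.23% and 9.64% of 83, against 13.7% and 14.1% of all genes. The 6 lower ones were Ndufa6, Ndufb4, Sdha, Uqcrc2, Cox6c and Atp5g2. At an unadjusted p under 0.05 there were 20 nuclear members, 24.1% of 83, against 37.6% of all genes.

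**Figure D4:**
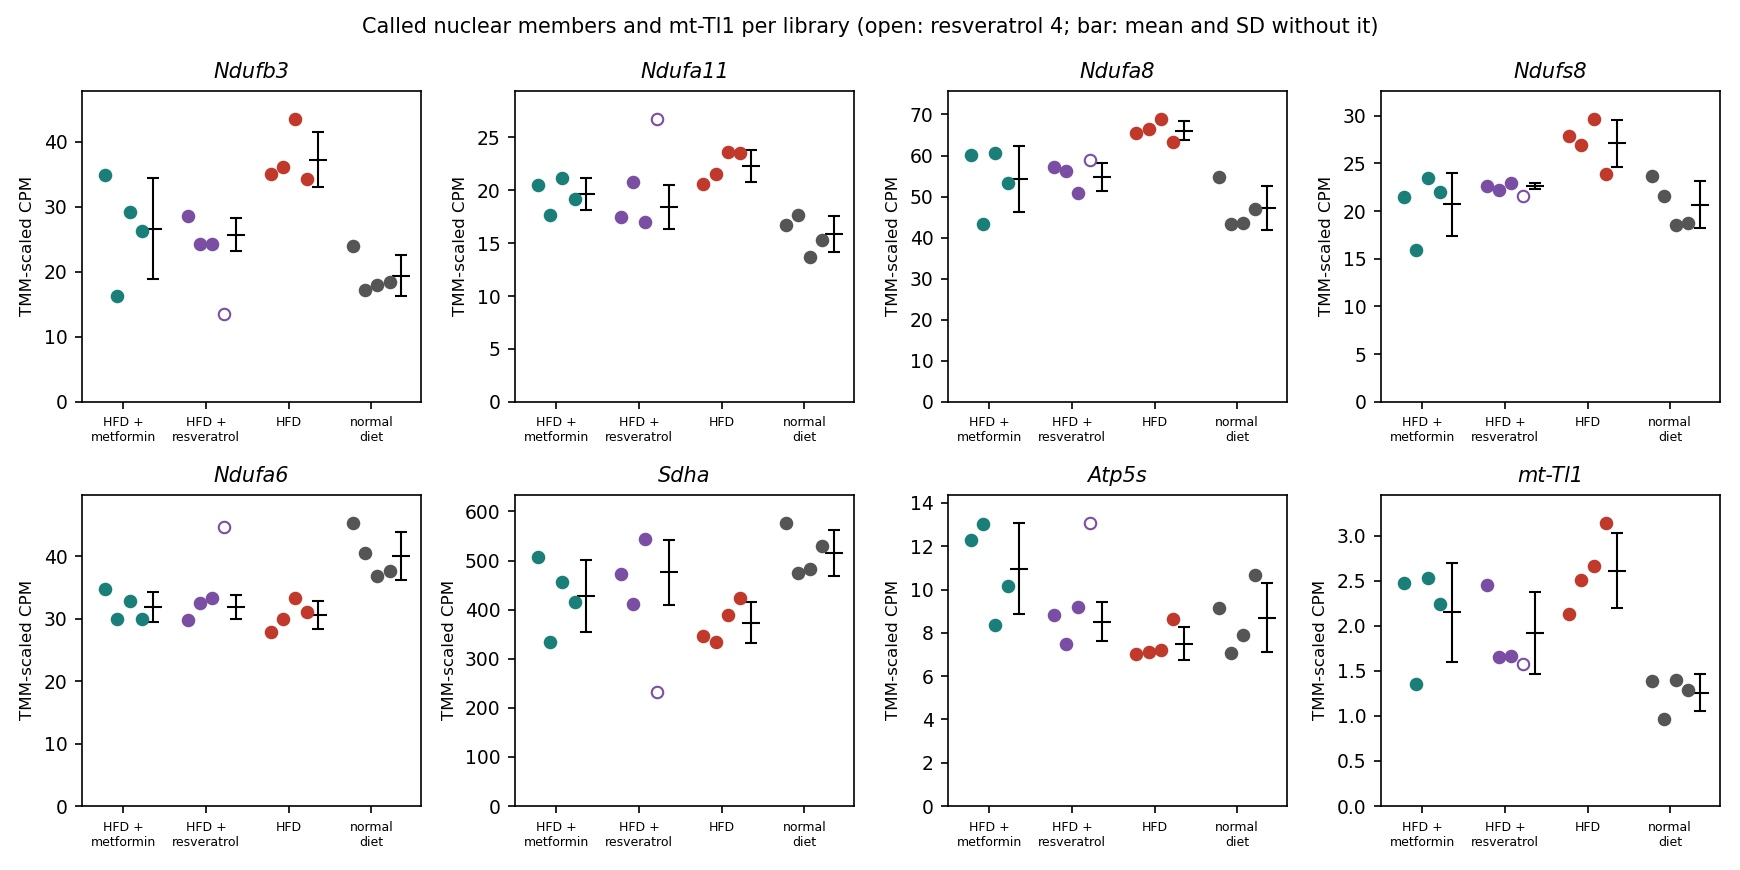
TMM-scaled CPM per library (y axis) in the 4 groups (x axis) for the called nuclear members other than Cox7a1 and for mt-Tl1, with mean and SD; the open point is resveratrol 4. Ndufb3, Ndufa11, Ndufa8 and Ndufs8 are highest in the HFD group and Ndufa6 and Sdha are highest on the normal diet, with the drug groups between or overlapping.

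Upstream sequences are shown for the called nuclear members that hold a word of the NRF1 motif and for the pair with the largest increases, which hold none. Each line is the 250 bases before the 5′-most transcription start in RefSeq (GRCm38.p6), on the gene's strand, and capitals mark the word GCGCATGC on either strand. The window is chr17:56717512-56717761 (plus strand) for Ndufa11, chr2:36049339-36049588 (minus strand) for Ndufa8, chr15:82354292-82354541 (minus strand) for Ndufa6, chr1:58586147-58586396 (plus strand) for Ndufb3 and chr7:30183921-30184170 (plus strand) for Cox7a1.
Ndufa11: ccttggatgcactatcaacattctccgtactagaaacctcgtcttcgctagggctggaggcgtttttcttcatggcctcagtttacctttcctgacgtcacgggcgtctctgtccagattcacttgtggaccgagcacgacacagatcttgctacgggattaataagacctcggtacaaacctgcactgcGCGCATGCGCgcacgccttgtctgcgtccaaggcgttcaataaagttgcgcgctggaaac
Ndufa8: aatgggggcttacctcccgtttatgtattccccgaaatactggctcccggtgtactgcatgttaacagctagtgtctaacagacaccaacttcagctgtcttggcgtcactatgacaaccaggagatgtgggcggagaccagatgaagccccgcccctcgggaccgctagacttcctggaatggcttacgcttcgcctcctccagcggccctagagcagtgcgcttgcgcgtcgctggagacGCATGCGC
Ndufa6: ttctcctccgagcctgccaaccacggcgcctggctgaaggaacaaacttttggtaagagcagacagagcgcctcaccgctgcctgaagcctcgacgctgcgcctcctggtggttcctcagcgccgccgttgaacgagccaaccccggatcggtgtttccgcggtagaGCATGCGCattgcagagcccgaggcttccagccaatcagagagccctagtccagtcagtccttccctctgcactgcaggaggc
Ndufb3: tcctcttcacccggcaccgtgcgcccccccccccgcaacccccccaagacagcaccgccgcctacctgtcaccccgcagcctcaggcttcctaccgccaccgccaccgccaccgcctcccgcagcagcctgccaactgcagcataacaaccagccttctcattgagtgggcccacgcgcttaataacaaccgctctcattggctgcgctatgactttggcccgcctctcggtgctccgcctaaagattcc
Cox7a1: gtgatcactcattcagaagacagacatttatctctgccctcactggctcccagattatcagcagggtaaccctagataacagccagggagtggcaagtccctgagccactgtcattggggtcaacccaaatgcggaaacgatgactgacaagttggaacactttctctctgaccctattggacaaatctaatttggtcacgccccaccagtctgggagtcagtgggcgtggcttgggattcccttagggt

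NRF1, nuclear respiratory factor 1, is a transcription factor named for its sites in genes of this chain. Of the 86 nuclear members 66 were matched to a RefSeq promoter by symbol, among them all 7 called under HFD. The word GCGCATGC stood in 8 of 66 members (12.1%), against 2.31% of the 27025 genes with a promoter of the same length. It stood in 3 of the 7 called members: Ndufa11, with 2 overlapping matches, and Ndufa8, both of which rose, and Ndufa6, which fell. In Ndufa8 the match ended directly at the RefSeq start site, its first base 8 bases before it, and in Ndufa6 the first base was 83 bases before it. By the gene coordinates printed in this report, the windows of Ndufa8, Ndufb3 and Cox7a1 run into the gene. The match of Ndufa8 lies within the gene by those coordinates. CCGGAAG, a word of the GABP motif, stood in 11 members (16.7%), against 7.07% of all genes. AAGGTCA, for the estrogen-related receptors, stood in 5 (7.58%), against 4.04%, and ATGGCGG, for YY1, in 2 (3.03%), against 2.2%. None of these 3 words stood in a called member, 23 of 66 members held at least 1 of the 4 words (34.8%, against 14.6% of all genes), and both strands were searched. The 250 bases were 51.2% G and C in Cox7a1 and 65.6% in Ndufb3. A match describes these letters and is not a binding site shown to be used.

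Subunit isoforms with restricted tissue patterns were examined beside their common partners. Cox7a1 (chr7:30184144-30186078), the isoform of a complex IV subunit known from heart, skeletal muscle and brown fat, had 3.86, 2.92, 3.34 and 2.41 CPM in the HFD libraries, against 1.39, 1.01, 0.804 and 0.646 CPM in the normal diet libraries, from 76, 57, 64 and 40 reads and 18, 20, 15 and 11 reads. It was the nuclear member that rose most, with separate groups and in all 23 alternative fits (log2 1.70, SE 0.40, adjusted p = 0.00958). Its common partner Cox7a2 had 73.97, 69.9, 84.5 and 78.9 CPM in the HFD libraries, against 93.4, 66.9, 65.5 and 73.6 CPM in the normal diet libraries (log2 0.04, adjusted p = 0.832). Cox8b, likewise known from muscle and brown fat, had 3.503, 2.72, 3.03 and 3.44 CPM in the HFD libraries, against 2.77, 1.32, 1.88 and 0.999 CPM in the normal diet libraries, where HFD 2 was just below normal diet 1 (log2 0.87, SE 0.37, adjusted p = 0.105). Its partner Cox8a had similar ranges, 186, 187, 212 and 213 CPM in the HFD libraries, against 233, 179, 178 and 204 CPM in the normal diet libraries (log2 0.01, adjusted p = 0.979).

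Of the 7 brown adipocyte markers 6 were in the table and 4 averaged over 1 CPM. With Cox7a1 and Cox8b among them, the list summed to 9.07 to 12.4 CPM in the HFD libraries, against 3.89 to 10.6 CPM in the normal diet libraries. Cidea was at 1.14 to 2.63 CPM in the HFD libraries, against 0.629 to 4.94 CPM in the normal diet libraries. Elovl3 was at 0.940 to 3.02 CPM, against 0.375 to 3.82 CPM, and Dio2 at 0.411 to 1.38 CPM, against 0 to 1.26 CPM. The groups overlapped in each of these, so the sum rests in part on the members themselves. Ucp1, the defining uncoupling protein of brown fat, was at or near 0 in every library, at no more than 0.410 CPM. The 8 skeletal muscle markers summed to 42.7 to 109.6 CPM in the HFD libraries, against 33.9 to 115 CPM in the normal diet libraries.

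Other isoform pairs were not called. Ndufa4l2, a hypoxia-inducible paralogue of Ndufa4, had 9.14, 7.59, 9.19 and 8.87 CPM in the HFD libraries, against 6.78, 5.87, 7.51 and 5.58 CPM in the normal diet libraries, without overlap but short of the threshold (log2 0.43, SE 0.16, adjusted p = 0.0681). Cox4i2, the isoform of lung and of hypoxic cells, had a log2 of 0.40, adjusted p = 0.399, and Cox6c, a subunit with no isoform partner on the list, -0.39, adjusted p = 0.0674. The 3 genes for ATP synthase subunit c, Atp5g1, Atp5g2 and Atp5g3, had log2 values of 0.13, -0.54 and 0.12, and their near-identical mature proteins and processed copies leave the split of reads among them uncertain. Cox6a2, the muscle isoform that did not pass the filter, had 11, 11, 20 and 3 reads in the HFD libraries, against 2, 0, 3 and 0 reads in the normal diet libraries, with metformin and resveratrol at 0 to 4 reads.

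**Figure D5:**
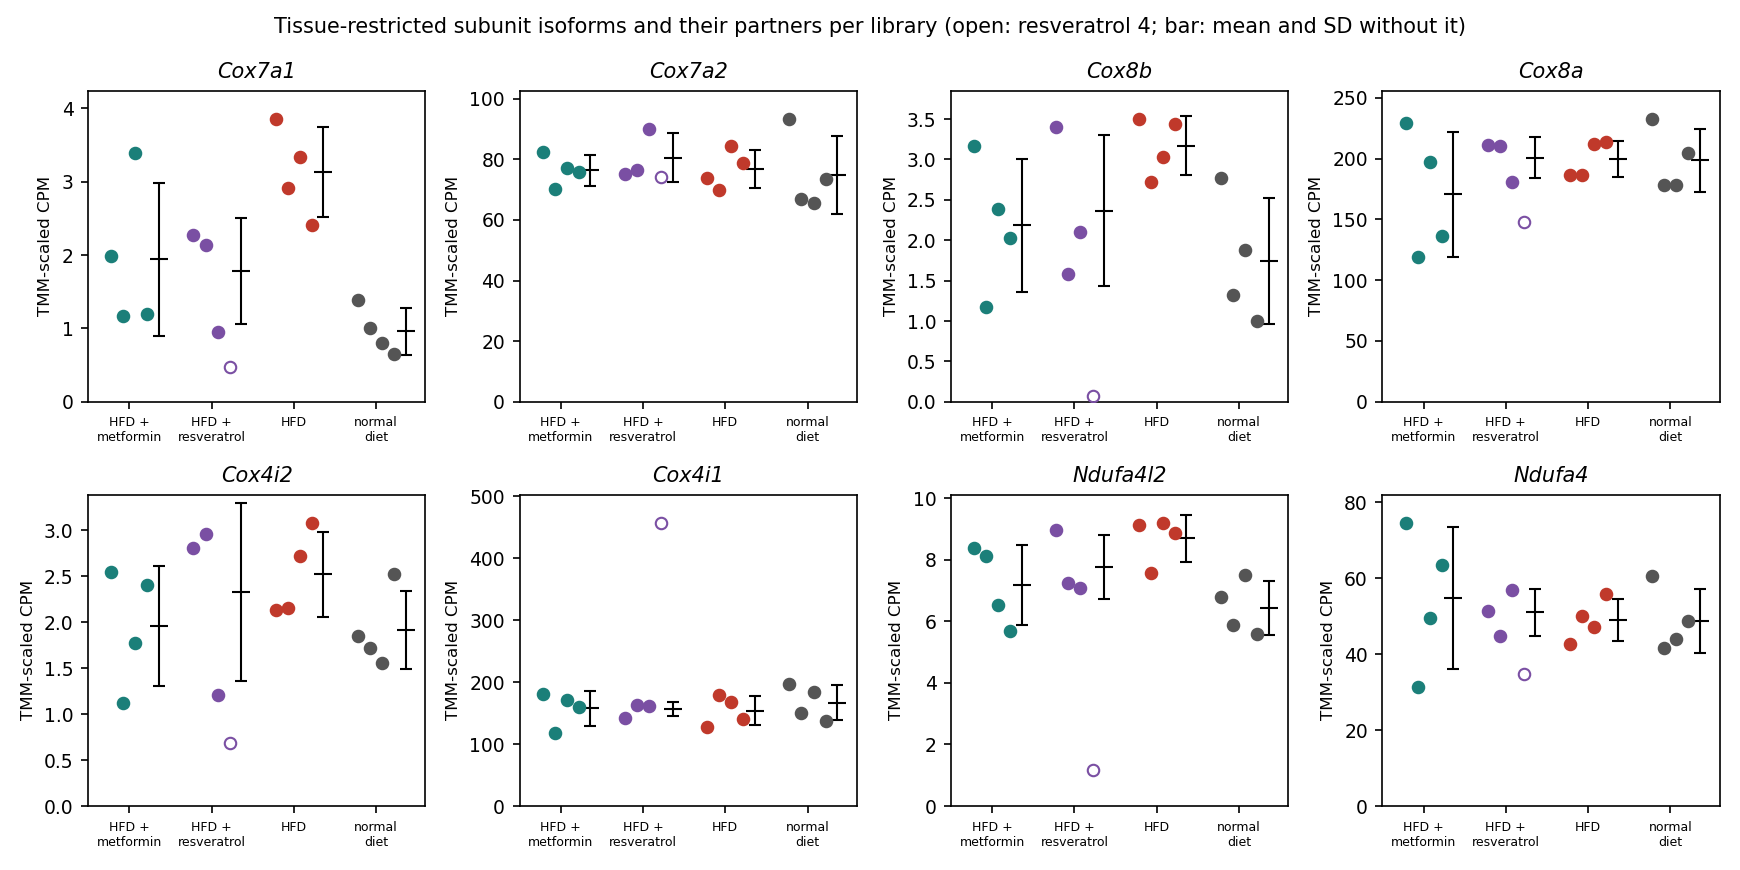
TMM-scaled CPM per library (y axis) in the 4 groups (x axis) for tissue-restricted subunit isoforms and the partner each replaces, with mean and SD; the open point is resveratrol 4. Cox7a1 is at 2.41 to 3.86 CPM under HFD and 0.646 to 1.39 CPM on the normal diet, while Cox7a2 lies between 65.5 and 93.4 CPM in both.

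The wider pathway was read from 5 lists: assembly factors, genes that express and maintain mitochondrial DNA, transcriptional regulators, electron carriers and entry enzymes, and the tricarboxylic acid cycle. Of 43 tested genes for the expression and upkeep of mitochondrial DNA 7 fell and 2 rose under HFD, 16.3% and 4.65%, against 9.34% and 13.8% of all genes, with a median log2 of -0.09. Hsd17b10, a part of mitochondrial RNase P, which cuts the ends of transfer RNAs, had 44.7, 41.6, 38.7 and 52.7 CPM in the HFD libraries, against 100.2, 81.6, 87.5 and 92.7 CPM in the normal diet libraries (log2 -1.03, SE 0.14, adjusted p = 0.00053). Twnk, the helicase of mitochondrial DNA replication, had 14.1, 11.02, 12.1 and 15.5 CPM in the HFD libraries, against 19.9, 22.5, 17.8 and 18.9 CPM in the normal diet libraries (log2 -0.59, SE 0.13, adjusted p = 0.00668). Both genes fell without overlap. Atad3a, a protein of the mitochondrial nucleoid region, and Mterf3, which binds near the mitochondrial promoter region and represses transcription, also fell (Atad3a log2 -0.38, adjusted p = 0.0045, and Mterf3 log2 -0.42, adjusted p = 0.00666). Tfam, which packages the mitochondrial genome, and Polrmt, its RNA polymerase, had log2 values of -0.00 and 0.03 and were not called.

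Among 15 tested regulators 3 fell and 1 rose, 20% and 6.67%, against 9.34% and 13.8% of all genes. Ppargc1a, the coactivator of mitochondrial biogenesis, had 4.11, 2.82, 5.43 and 4.83 CPM in the HFD libraries, against 14.6, 21.7, 12.9 and 8.69 CPM in the normal diet libraries (log2 -1.75, SE 0.37, adjusted p = 0.00588). Nrf1 had 20.4, 22.1, 18.6 and 23.1 CPM in the HFD libraries, against 27.2, 28.9, 29.3 and 30.1 CPM in the normal diet libraries (log2 -0.46, SE 0.08, adjusted p = 0.00153). Both groups of values were separate. The highest Ppargc1a value, 21.7 CPM, was that of normal diet 2, which is rich in ciliated epithelium transcripts, as no HFD library was. The part of these transcripts was not tested. Pprc1, a relative of Ppargc1a, fell (log2 -0.77, adjusted p = 0.0229), and Esrra, the estrogen-related receptor alpha, rose (log2 0.45, adjusted p = 0.00892). Ppargc1a and Nrf1 passed in all 23 alternative fits, Esrra in 22 and Pprc1 in 17, where its adjusted p reached 0.0649.

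Of 52 assembly factors 9 rose and 1 fell, 17.3% and 1.92%, against 13.8% and 9.34% of all genes, so the share that rose was near that of all genes. The median log2 was 0.15. Higd2a, of complex IV assembly, had 42.4, 39.3, 44.97 and 42.9 CPM in the HFD libraries, against 23.6, 22.7, 21.3 and 23.4 CPM in the normal diet libraries (log2 0.90, SE 0.11, adjusted p = 0.00036). Acad9, of complex I assembly, had 75.6, 76.7, 73.3 and 70.3 CPM in the HFD libraries, against 44.5, 43.1, 43.2 and 44.6 CPM in the normal diet libraries (log2 0.75, SE 0.11, adjusted p = 0.000737). Both stood clear of the normal diet libraries in every HFD library. Sdhaf4, which chaperones Sdha, and Higd1a, a hypoxia-induced partner of complex IV, rose as well (Sdhaf4 log2 0.99, adjusted p = 0.000513, and Higd1a log2 0.89, adjusted p = 0.000514).

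Of 28 tested electron carriers and entry enzymes 3 rose and 2 fell, 10.7% and 7.14%, and of 20 tricarboxylic acid cycle genes 3 rose and 3 fell, 15% each. These shares were near the 13.8% that rose and the 9.34% that fell of all genes. Sqor, which feeds electrons from sulfide to ubiquinone, fell (log2 -1.35, adjusted p = 0.0016), as did Gpd2, the glycerol phosphate shuttle enzyme (log2 -0.88, adjusted p = 0.0207). Coq7, of ubiquinone synthesis, and Atpif1, the inhibitor of ATP synthase, rose (Coq7 log2 0.65, adjusted p = 0.0148, and Atpif1 log2 0.70, adjusted p = 0.0298). In the cycle, the succinyl-CoA ligase subunits went apart, with Suclg2 falling (log2 -1.27, adjusted p = 0.00647) and Sucla2 rising (log2 0.54, adjusted p = 0.0151), while Idh3b (log2 -0.48, adjusted p = 0.011) and Pdha1 (log2 -0.59, adjusted p = 0.0289) fell. Sqor and Suclg2 passed in all 23 alternative fits, Coq7 and Idh3b in 22, Sucla2 in 21, Gpd2 in 18, and Atpif1 and Pdha1 in 16, with adjusted p-values of up to 0.328 for Atpif1 and 0.166 for Pdha1.

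The question of the drug groups was how HFD fat with metformin or resveratrol differed from HFD fat without. Both comparisons use the same 4 HFD libraries, as does that of HFD with the normal diet, so their values are set side by side and no relation between them is drawn. With metformin 6.09% of all genes rose and 7.84% fell, while 1 nuclear member of 83 rose, none fell, and none of the 24 mitochondrial members was called (1 at an unadjusted p under 0.05, 4.17%, against 35.4% of all genes, and 1 called by DESeq2). With resveratrol 1.09% of all genes rose and 3.09% fell, and no member of either genome was called by edgeR, with 7 nuclear and 11 mitochondrial members at an unadjusted p under 0.05, 8.43% and 45.8%, against 22.4% of all genes. DESeq2 called 6 mitochondrial members there and no nuclear ones, beside 795 genes up and 1346 down over all genes. For metformin DESeq2 called 2345 genes up and 2043 down over all genes. The counts over all genes rested on single libraries. For resveratrol 191 genes rose and 541 fell, and 0 or 1 rose and 1 or 2 fell when HFD 1, 2 or 3 or resveratrol 1, 2 or 3 was left out, or when only those 2 groups were fitted. For metformin 1068 rose and 1374 fell, against 113 to 148 and 356 to 447 without HFD 1, 2 or 3, and 344 and 762 without metformin 2.

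All 13 mitochondrial protein genes had a higher mean with either drug than under HFD alone, with a median log2 of 0.37 for metformin and 0.55 for resveratrol, against 0.04 over all genes in each comparison. mt-Atp6 had 151, 91.3, 146 and 130.5 CPM with metformin and 142, 134 and 191 CPM with resveratrol, against 73.1, 91.1, 104 and 116 CPM under HFD alone. mt-Atp8 had 50.9, 27.6, 41.1 and 44.1 CPM with metformin and 45.8, 37.9 and 50.4 CPM with resveratrol, against 20.9, 25.01, 26.6 and 35.1 CPM under HFD alone. Metformin 2 was within the HFD range in both genes, and all resveratrol libraries were above it. The statistics were log2 0.43, SE 0.21, adjusted p = 0.152 for mt-Atp6 with metformin and log2 0.70, SE 0.22, adjusted p = 0.0884 with resveratrol. For mt-Atp8 they were log2 0.61, SE 0.24, adjusted p = 0.0892 with metformin and log2 0.73, SE 0.25, adjusted p = 0.113 with resveratrol.

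In complexes I, III and IV the pattern was alike. mt-Nd5 had 536, 358, 564 and 509 CPM with metformin and 525, 452 and 670.3 CPM with resveratrol, against 265, 349, 364 and 452 CPM under HFD alone. mt-Cytb had 950.0, 579, 943 and 820.2 CPM with metformin and 963, 821 and 1159 CPM with resveratrol, against 496, 531, 561 and 819 CPM under HFD alone. mt-Co1 had 7367, 4369.6, 6573 and 6175 CPM with metformin and 6616, 5946 and 8985 CPM with resveratrol, against 4419, 4642, 5645 and 5961 CPM under HFD alone. Metformin 2 was the lowest of its group in each of these and lay among or below the HFD libraries. It also had the lowest adipocyte marker sum of the tested libraries, 21622 CPM, against 27748 to 37202 CPM under HFD alone. Without metformin 2 the median log2 of the 13 genes was 0.49 for metformin against HFD, and none of them was called. The part of its cell markers was not tested. With resveratrol mt-Nd5 and mt-Cytb stood just clear of the highest HFD library, HFD unmatched, and mt-Co1 overlapped it. The smallest adjusted p of the 13 was 0.0884 with resveratrol and 0.0892 with metformin. Of the 13 genes 7 had resveratrol libraries entirely above the HFD libraries, against 9.15% of all genes, and none did with metformin. mt-Nd1 and mt-Nd2 had the smallest log2 values with metformin (0.11 and 0.13) and with resveratrol (0.17 and 0.21).

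HFD unmatched, the highest of its group in 11 of 13 genes, bears on these comparisons. Without it 4 mitochondrial members were called for resveratrol and 1 for metformin. The calls over all genes grew as well, to 760 up and 1306 down for resveratrol and 1222 up and 1777 down for metformin. Without both libraries that could be tied only to a group, 2 mitochondrial members were called for resveratrol, beside 586 genes up and 1269 down over all genes. The macrophage markers summed to 1289 to 1833 CPM with metformin and 1528 to 1686 CPM with resveratrol, against 2017 to 6063 CPM under HFD alone. They were thus lower with both drugs, where the mitochondrial protein genes had higher means. Their part was not tested.

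The mitochondrial ribosomal RNA sum was 445, 206, 247 and 735 CPM with metformin and 465, 883 and 352 CPM with resveratrol, against 63.3, 217, 253 and 203 CPM under HFD alone. All resveratrol libraries were above all HFD libraries, and neither gene passed (mt-Rnr2 log2 1.52, SE 0.55, adjusted p = 0.129, and mt-Rnr1 log2 1.59, SE 0.67, adjusted p = 0.192). mt-Tl1 had 2.48, 1.35, 2.53 and 2.24 CPM with metformin and 2.45, 1.65 and 1.66 CPM with resveratrol, against 2.13, 2.51, 2.66 and 3.14 CPM under HFD alone, with overlap in both.

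The nuclear member that rose with metformin was Atp5s (chr12:69724950-69744660), coupling factor B of ATP synthase. It had 12.3, 13.04, 8.36 and 10.2 CPM with metformin and 8.84, 7.51 and 9.19 CPM with resveratrol, against 7.01, 7.12, 7.21 and 8.63 CPM under HFD alone. Metformin 4 lay below HFD unmatched, so the metformin and HFD groups overlapped (log2 0.55, SE 0.17, adjusted p = 0.0474). The call was made in 9 of 23 alternative fits. The adjusted p was 0.118 without metformin 2, 0.0685 without metformin 1, 0.0614 without metformin unmatched, and 0.12, 0.116 and 0.123 without HFD 1, 2 and 3, with log2 values of 0.45 to 0.58. It was 0.0558 to 0.0617 without normal diet 1, normal diet 3, resveratrol 1 or resveratrol 3.

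With edgeR on the 15 libraries, none of the nuclear members called for HFD against the normal diet passed with either drug. Ndufb3 had 34.9, 16.2, 29.2 and 26.4 CPM with metformin and 28.7, 24.2 and 24.3 CPM with resveratrol, against 35.03, 36.2, 43.6 and 34.3 CPM under HFD alone (log2 -0.53, SE 0.21, adjusted p = 0.157 for resveratrol). Cox7a1 had 1.99, 1.17, 3.396 and 1.203 CPM with metformin and 2.27, 2.13 and 0.958 CPM with resveratrol, against 3.86, 2.92, 3.34 and 2.41 CPM under HFD alone (log2 -0.81, SE 0.43, adjusted p = 0.283 for resveratrol). The 3 resveratrol libraries were below all HFD libraries in both genes, while metformin 1 for Ndufb3 and metformin 4 for Cox7a1 lay within the HFD range. Sdha had 506, 334, 456 and 415 CPM with metformin and 472, 412 and 545 CPM with resveratrol, against 347, 334, 389.7 and 424 CPM under HFD alone, with overlap in both (log2 0.35, SE 0.14, adjusted p = 0.179 for resveratrol). For Ndufs8 with metformin the test gave log2 -0.39, SE 0.12, adjusted p = 0.0504, and it was called by DESeq2, without the group-only libraries and without normal diet 2, HFD unmatched or metformin 4. Ndufb3 was called with metformin when metformin 1 was left out. With resveratrol 8 nuclear members were entirely below and 3 entirely above the HFD libraries, 9.64% and 3.61% of 83, against 12.4% and 9.15% of all genes, and the 3 higher ones were Ndufa12, Uqcrc2 and Cox6c. The nuclear median log2 was -0.05 with metformin and 0.02 with resveratrol.

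Metformin 2 carried other subunit isoforms. Cox6b2, Cox7b2 and Cox8c, complex IV isoforms known from testis, had 0, 343, 4 and 0 reads for Cox7b2 and 2, 328, 0 and 0 reads for Cox8c in the metformin libraries. Cox6b2 had 1.44, 25.9, 1.52 and 2.02 CPM with metformin, against 1.22, 0.871, 0.731 and 1.99 CPM under HFD alone (log2 2.68, SE 0.87, adjusted p = 0.0559). The same library had the highest sum of 13 spermatogenic cell markers, 2202 CPM, followed by the left-out resveratrol 4 with 761 CPM, and the other 14 libraries had 0.828 to 44.1 CPM. That list itself holds Cox6b2, Cox7b2 and Cox8c. They made up 28.9, 22.5 and 21.5 CPM of the sum in metformin 2, without TMM scaling.

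In the wider lists few genes were called with the drugs. With metformin Ppargc1a had 7.77, 15.2, 17.03 and 16.4 CPM, against 4.11, 2.82, 5.43 and 4.83 CPM under HFD alone, every metformin library above every HFD library (log2 1.71, SE 0.37, adjusted p = 0.0163). It had 8.002, 17.2 and 6.58 CPM with resveratrol, also above all HFD libraries but not called (log2 1.30, adjusted p = 0.0742). Nrip1, a corepressor of oxidative genes in fat, rose with metformin (log2 0.39, adjusted p = 0.0327) and with resveratrol (log2 0.51, adjusted p = 0.0365). Sqor and Suclg2 rose with metformin (Sqor log2 0.77, adjusted p = 0.0406, and Suclg2 log2 1.08, adjusted p = 0.0271) and with resveratrol (Sqor log2 0.96, adjusted p = 0.0419, and Suclg2 log2 1.15, adjusted p = 0.0466). Cmc2, a complex IV assembly factor, fell with both drugs (metformin log2 -0.73, adjusted p = 0.042, and resveratrol log2 -1.04, adjusted p = 0.0367), and Higd2a fell with metformin (log2 -0.56, adjusted p = 0.012). Ucp2, an inner membrane carrier, and Slc25a5, an ADP/ATP carrier, fell with metformin (Ucp2 log2 -0.93, adjusted p = 0.0247, and Slc25a5 log2 -0.44, adjusted p = 0.04). Of the 43 genes for mitochondrial DNA expression and upkeep none was called with either drug, with 6 at an unadjusted p under 0.05 for metformin and 5 for resveratrol, 14% and 11.6%, against 35.4% and 22.4% of all genes. These calls rested on few libraries. With resveratrol Nrip1, Sqor, Suclg2 and Cmc2 all lost the call when any of HFD 1 to 3 or resveratrol 1 to 3 was left out, with adjusted p-values of up to 0.136 for Nrip1, 0.173 for Sqor, 0.152 for Suclg2 and 0.136 for Cmc2. With metformin Nrip1, Sqor, Suclg2, Cmc2, Ucp2 and Slc25a5 lost it without HFD 1, 2 or 3. Suclg2 with metformin had log2 values of 0.36 to 1.26 over the alternative fits. Higd2a passed in 21 of 23 alternative fits and Ppargc1a in 20, with an adjusted p of 0.0529 without HFD 1 and 0.0555 without HFD 2. Without the libraries rich in ciliated epithelium transcripts, where metformin 1 is the lone metformin library, the log2 of Ppargc1a was 0.86. Ppargc1a was at 15.2 to 17.2 CPM in the ciliated-rich metformin 2, 4 and unmatched and resveratrol 2. In metformin 1 and resveratrol 1 and 3 it was at 6.58 to 8.002 CPM. Normal diet 2, also rich in ciliated epithelium transcripts, had the highest Ppargc1a of the normal diet libraries. The part of these transcripts was not tested.

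Set against the normal diet, the drug groups on HFD had no member called by edgeR. These comparisons share the 4 normal diet libraries with that of HFD. With metformin against the normal diet 0.804% of all genes rose and 0.901% fell, and edgeR called none of the 83 nuclear and 24 mitochondrial members, with 7 and 3 at an unadjusted p under 0.05, 8.43% and 12.5%, against 18.7% of all genes, and 1 of each called by DESeq2. Over all genes 141 rose and 158 fell there, against 0 and 1 with all libraries in the model and 18 and 10 with only those 2 groups fitted. By DESeq2 545 genes rose and 586 fell. With resveratrol against the normal diet 0.103% of all genes rose and 0.0456% fell, and again no member was called, with 3 nuclear and 3 mitochondrial members at an unadjusted p under 0.05, 3.61% and 12.5%, against 9.83% of all genes, and 1 nuclear member called by DESeq2. Over all genes DESeq2 called 238 up and 179 down there.

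The mitochondrial protein genes had median log2 values of -0.36 for metformin and -0.14 for resveratrol against the normal diet, beside -0.67 for HFD alone. With metformin 12 of 13 were below 0 and with resveratrol 11 of 13. mt-Atp6 had 151, 91.3, 146 and 130.5 CPM with metformin and 142, 134 and 191 CPM with resveratrol, against 270.2, 163, 171 and 214 CPM on the normal diet. All metformin libraries were below all normal diet libraries, and resveratrol overlapped them (metformin log2 -0.66, SE 0.21, adjusted p = 0.12, and resveratrol log2 -0.39, SE 0.22, adjusted p = 0.62). Among nuclear members Ndufa6 was nearest to a call with metformin (log2 -0.33, SE 0.09, adjusted p = 0.0734), at 34.8, 29.9, 32.8 and 30.02 CPM, against 45.3, 40.6, 36.8 and 37.7 CPM on the normal diet.

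Outside the chain itself, 6 genes of the wider lists were called for metformin against the normal diet. Hsd17b10 had 52.4, 36.2, 53.3 and 43.9 CPM with metformin, against 100.2, 81.6, 87.5 and 92.7 CPM on the normal diet (log2 -0.96, SE 0.14, adjusted p = 0.00686). Atad3a and Nrf1 fell as well (Atad3a log2 -0.38, adjusted p = 0.0284, and Nrf1 log2 -0.36, adjusted p = 0.0315), and the assembly factors Higd1a, Sdhaf4 and Acad9 rose (Higd1a log2 0.64, adjusted p = 0.0189, Sdhaf4 log2 0.62, adjusted p = 0.0322, and Acad9 log2 0.47, adjusted p = 0.0484). With all libraries none of the 6 was called, at adjusted p-values of 0.2 to 0.286, nor with only those 2 groups fitted, at 0.0524 to 0.209. Of 23 alternative fits Hsd17b10 passed in 20, Higd1a in 17, Atad3a in 15, Sdhaf4 in 11, Nrf1 in 10 and Acad9 in 4. Log2 values for Acad9 were 0.39 to 0.59 over these fits. With resveratrol no gene of the 5 lists was called against the normal diet. Hsd17b10 had 57.7, 51.6 and 67.3 CPM there (log2 -0.62, adjusted p = 0.132).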

How the data were processed

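Per the file headers, the deposited mRNA table held whole-number counts per transcript, and FPKM values of the authors that served only to check which column belonged to which header. Per the submitters' processing notes, fastp, HISAT2 and GRCm38 were used. How reads were counted, on which annotation and with which strand setting is not given in the sources used here. The header had 43 names for 44 cells, 5 records were broken over 2 lines, and library totals implied by FPKM, counts and length differed from the summed counts by at most 8.38e-05%, against at least 0.634% for another library. Of 16 count columns 14 matched a sample title and 2 a group only, and 4 value columns were not used.

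Counts of 91879 transcripts were summed to 27150 genes by identifier, of which 54 names stood on more than 1 identifier. The lncRNA table held 77985 features, none on the mitochondrial genome. In 15 libraries 17535 genes passed edgeR's filter on low counts (minimum count 10). They were fitted with edgeR 4.0.16 in R 4.3.3 (robust quasi-likelihood, TMM, group as the factor), with two-sided tests and Benjamini-Hochberg adjustment over all genes. Resveratrol 4, with Crisp1 above 1000 CPM, was left out. Rose and fell mean an adjusted p under 0.05. Member CPM are TMM-scaled, sums are shares of mRNA counts, and SE is that of the log2 fold change. The ratio of the genomes has no p-value. The code was tested on simulated data.

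The members and lists were chosen with earlier results of these data known. Named are called members, the mitochondrial protein genes, isoform pairs, central subunits (1 is not reported here) and up to 4 called genes per list. Alternatives were all libraries, DESeq2 1.42.0, upper-quartile scaling, no filter, library sizes without mitochondrial genes, only the 2 groups compared, no group-only columns, no libraries with over 300 CPM of ciliated epithelium markers, and each library left out. Ratios leaving out the transfer and ribosomal RNAs, or mt-Co1, were added after seeing the data.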

Additional observations from a re-analysis of the deposited data

Results flagged for a closer look

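Of 135 checks for a single library far from the rest of its group, 12 found one, where chance gives about 1 in 20. In metformin 2, Cox6b2 stood at 25.9 CPM, Cox7b2 at 20.1 CPM and Cox8c at 19.3 CPM, against 1.44 to 2.02, 0 to 0.203 and 0 to 0.138 CPM in the other metformin libraries. mt-Nd2 was low there, at 106 CPM against 173 to 183 CPM. In the left-out resveratrol 4, Cox7b2 stood at 1.57 CPM, against 0 to 0.138 CPM in resveratrol 1 to 3. Normal diet 1 had 502 CPM of mt-Nd1, against 325 to 338 CPM in the other normal diet libraries. HFD unmatched had 12.3 CPM of summed mitochondrial transfer RNAs, against 8.52 to 8.92 CPM in HFD 1 to 3, and 8.63 CPM of Atp5s, against 7.01 to 7.21 CPM. Resveratrol 1 had 2.45 CPM of mt-Tl1, against 1.57 to 1.66 CPM in the other resveratrol libraries. The remaining values rest on at most 2 reads: Cox6a2 at 0.0638 CPM in resveratrol 3, Cox7b2 at 0.121 CPM in HFD unmatched and Cox8c at 0.154 CPM in normal diet 1, each against 0 in the other libraries of its group.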

How the results depend on the processing

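No paired analysis was possible because the replicate numbers follow only the order of the records and mark no shared animal or batch. For HFD against the normal diet, 7 nuclear members were called, 3 with all libraries, 13 with DESeq2, 11 without the libraries rich in ciliated epithelium transcripts and 5 to 11 when leaving out each library in turn. Of the mitochondrial members 11 were called, 6 with all libraries and 5 to 12 when leaving out each library. Over all genes 2412 rose and 1638 fell, 921 and 610 with all libraries and 2916 and 2531 with DESeq2. For metformin against HFD, 1 nuclear member was called, 0 with all libraries, 3 with DESeq2, 0 without the filter, 3 without the group-only columns, 0 to 3 when leaving out each library, and 0 without the ciliated-rich libraries, where metformin 1 is the lone metformin library and is assumed to vary like the other groups, so that this 0 says little. Of the mitochondrial members 0 were called, 1 with DESeq2 and 0 to 1 when leaving out each library. For resveratrol against HFD, 0 nuclear members were called, and 0 to 1 when leaving out each library, and 0 mitochondrial members, 6 with DESeq2, 2 without the group-only columns and 0 to 4 when leaving out each library. Against the normal diet, metformin had 0 called, 1 nuclear and 1 mitochondrial with DESeq2 and 0 to 1 nuclear when leaving out each library, and resveratrol 0, with 1 nuclear by DESeq2. Taken in each library as the median log2 CPM of the tested mitochondrial members minus that of the nuclear members, in place of the ratio of sums, the genome difference was 0.50 for metformin and 0.67 for resveratrol against HFD. With resveratrol 4 kept the log2 ratio difference was 0.68 against HFD and 0.071 against the normal diet. Leaving out each library gave -0.67 to -0.53 for HFD against the normal diet, 0.27 to 0.38 and 0.37 to 0.54 for metformin and resveratrol against HFD, and -0.32 to -0.21 and -0.24 to -0.05 for metformin and resveratrol against the normal diet. Of 2300 values of members and called list genes under the alternatives, 1920 kept direction and side of the threshold, 360 were no longer called, 18 became called and 2 changed sign, those of mt-Nd1 and mt-Nd2 for HFD without normal diet 1. Leaving out each library, mt-Nd1 ranged from -0.20 to 0.057 and mt-Nd2 from -0.26 to 0.072. The causes were not tested. Transfer RNA counts of 85 to 217 per library limit what can be said of single transfer RNAs.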
